A study of Mus musculus with 6 samples.

Results

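The pancreatic serine proteases comprised 9 genes, chosen by name from the 23337 gene rows of each count file. These were the trypsinogen genes Prss1, Prss2 and Prss3, the chymotrypsin genes Ctrl, Ctrb1 and Ctrc, and the elastase genes Cela1, Cela2a and Cela3b, and the trypsinogen rows were also summed. RNA was sequenced from pancreas of NMRI mouse embryos at E13.5, in 6 libraries that each came from a separate pool of 5 to 6 pancreata. The 3 control pools came from wildtype embryos. The 3 mutant pools came from embryos labelled Prox1-nullyzygous, with the genotype Prox1 GFPCre/D, so the mutants carried a GFPCre allele that the controls lacked, and the presence of that allele and the loss of Prox1 cannot be told apart. Control and mutant below name the pools as they were labelled.

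Serine proteases of the pancreas are made by acinar cells as inactive precursors, stored in zymogen granules and secreted into the gut. There enteropeptidase cuts trypsinogen to trypsin, and trypsin then activates the chymotrypsinogens and proelastases. In the embryo their genes come on in steps as acinar cells arise from the tips of the branching epithelium, under the trimeric factor PTF1 (PTF1A, an E protein and RBPJL) together with NR5A2 and the basic helix-loop-helix factor BHLHA15.

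The activation site is what the 9 products have in common, and the stretch of coding sequence around it is shown for 8 of them to place the 3 classes side by side. Each line runs 5′ to 3′ from a GENCODE M21 transcript, with the last 8 codons of the activation peptide in lower case and the first 4 codons of the active enzyme in capitals.
Prss1: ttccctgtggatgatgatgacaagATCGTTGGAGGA
Prss2: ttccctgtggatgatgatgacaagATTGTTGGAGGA
Prss3: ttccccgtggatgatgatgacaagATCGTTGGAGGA
Ctrl: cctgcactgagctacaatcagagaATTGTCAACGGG
Ctrb1: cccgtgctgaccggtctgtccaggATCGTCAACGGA
Ctrc: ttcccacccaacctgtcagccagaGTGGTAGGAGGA
Cela2a: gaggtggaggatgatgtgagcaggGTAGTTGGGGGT
Cela3b: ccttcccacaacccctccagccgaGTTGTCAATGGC
The trypsinogen lines end their lower-case part with a run of aspartate codons and a lysine codon, the site that enteropeptidase recognises. The coding sequences of Prss1 and Prss3 were identical at 96.3% of aligned positions, those of Prss1 and Prss2 at 89.6%, and those of Prss2 and Prss3 at 88.6%. Ctrl and Ctrb1 were identical at 64.0%.

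Of the 9 genes, 4 were higher in the mutant pools, 1 was lower and 4 were not called, by edgeR's quasi-likelihood test at a Benjamini-Hochberg adjusted p under 0.05 over all 14687 genes tested. All 9 passed the filter on low counts. Prss1, Prss2, Prss3 and Ctrl, which encodes a chymotrypsin-like protease, were the genes that rose. Cela3b, an elastase gene, fell. Over all genes tested, 3.67% were called higher and 4.28% were called lower, by the same test. The groups did not overlap for 5 of the 9 genes, against 26.4% of all genes tested. The median log2 fold change (mutant minus control) was 0.66 over the 9 genes and 0.00 over all genes. In whole organs, fewer cells of a type and less RNA per cell cannot be told apart.

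**Figure D1:**
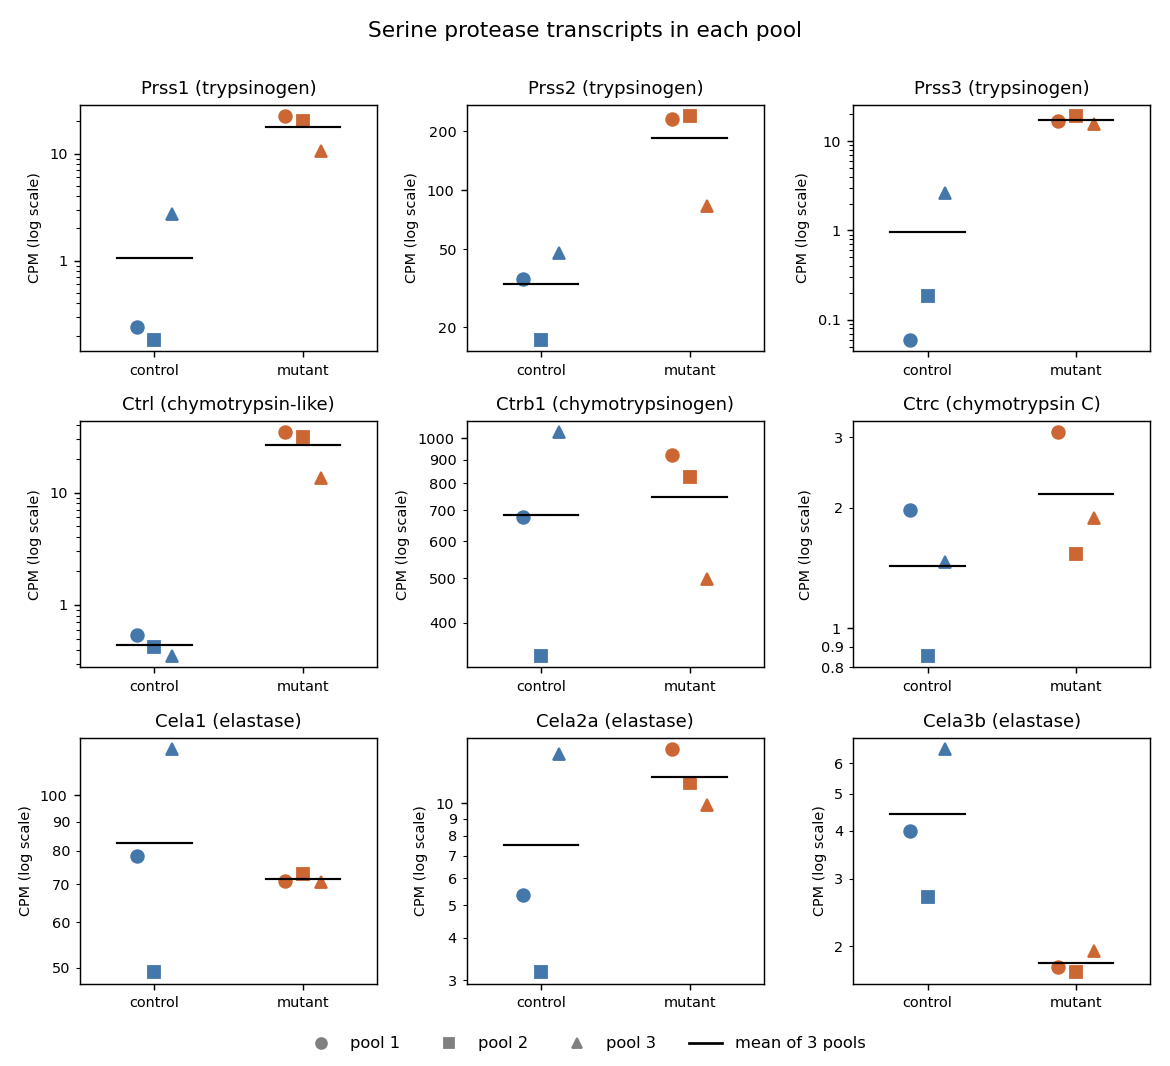
Levels of the 9 protease genes in CPM (reads scaled to library size, log scale, a different range in each panel) in the 3 control and 3 mutant pools, with 1 point per pool and a line at the mean of 3 pools. The groups stand apart for Prss1, Prss2, Prss3, Ctrl and Cela3b and overlap for Ctrb1, Ctrc, Cela1 and Cela2a.

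Each library held between 16060424 and 17633867 counted reads, so 1 CPM stood for 15.9 to 17.5 reads. The 9 genes held 0.0416% to 0.130% of the reads. Prox1, the targeted gene, had 1764, 1687 and 1824 reads in the controls and 1330, 1774 and 1602 in the mutants, in the order of pools 1 to 3 (edgeR log2 fold change -0.17, SE 0.074, adjusted p = 0.235). Its counts cover the whole gene and the sources used here do not give the deleted part, so they do not check the labels. Control pool 3 and mutant pool 1 had almost no reads of Xist, the RNA made from the inactive X chromosome (0.526 and 0.126 CPM, against 2015 to 2814 CPM in the other pools). No pair of libraries of a group agreed within sampling noise. The labels name pools of separate pancreata but no litter or day.

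Prss2 was the trypsinogen gene with the most reads in every pool. Control pools 1 to 3 had 591, 284 and 816 reads, against 3649, 4045 and 1447 in mutant pools 1 to 3. Scaled to library size, these were 35.3, 17.3 and 47.7 CPM in controls and 229.5, 238.3 and 82.8 CPM in mutants. Every mutant pool stood above every control pool, and mutant pool 3 was the lowest of the mutants. The gene rose 5.47-fold (edgeR log2 fold change 2.45, SE 0.43, 95% interval 1.48 to 3.43, adjusted p = 0.00987). Prss2 is annotated at chromosome 6, 41521787 to 41525079, plus strand (GRCm38).

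Prss1 was close to undetected in 2 of the 3 control pools. It had 4, 3 and 47 reads in the controls, and 356, 343 and 184 reads in the mutants. The levels were 0.239, 0.183 and 2.75 CPM in controls and 22.4, 20.2 and 10.5 CPM in mutants. Control pool 3 stood above the other controls and below all mutants. Prss1 rose 16.4-fold (95% interval 6.08 to 44.3, adjusted p = 0.00578 by edgeR), and the log2 fold change was 4.04 with all pools and 6.33 without control pool 3. It is annotated at chromosome 6, 41458932 to 41463786, plus strand.

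Prss3, like Prss1, had its highest control value in pool 3. Control pools 1 to 3 had 1, 3 and 45 reads, against 266, 324 and 274 in mutant pools 1 to 3. The mutants lay close together, at 16.7, 19.1 and 15.7 CPM, against 0.0597, 0.183 and 2.63 CPM in the controls. It rose 17.6-fold (95% interval 6.65 to 46.3, adjusted p = 0.00483 by edgeR). The log2 fold change was 4.13 with all pools and 7.06 without control pool 3. Prss3 is annotated at chromosome 6, 41373814 to 41377678, minus strand.

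The 3 trypsinogen rows were summed because copies this alike can exchange or lose reads in counting. Of all 50-base windows of the Prss1 transcript, 54.9% occur in transcripts of other genes, against 66.1% for Prss3 and 7.83% for Prss2. With 75-base windows the shares were 37.1%, 53.9% and 0.945%. Read length and the rule for reads with several matches were not given in the sources used here, so the split between Prss1, Prss3 and their near copies is uncertain. The sum was 596, 290 and 908 reads in the controls and 4271, 4712 and 1905 in the mutants. In CPM it was 35.4 ± 17.7 in controls and 218.4 ± 94.8 in mutants (mean ± SD, n = 3), with no overlap between groups. The sum rose 6.14-fold (edgeR log2 fold change 2.62, SE 0.42, 95% interval 1.67 to 3.56, adjusted p = 0.00619). With edgeR's robust estimation, the adjusted p was 0.0958 for the sum, 0.0638 for Prss1, 0.117 for Prss2 and 0.0532 for Prss3, and none of these calls was kept.

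Further trypsinogen genes lie in the same cluster on chromosome 6, and 8 rows beyond the 3 members were found. Of the 8 cluster genes with enough reads to test, the 3 members included, 7 were higher and 1 was not called by edgeR, and limma voom called 5 of the 8 higher. The share called higher by edgeR over all genes tested was 3.67%. Copies that share windows can exchange reads, so their calls are not separate results. Gm5771, whose coding sequence is 97.6% identical to that of Prss1, had 3, 0 and 12 reads in controls and 367, 327 and 168 in mutants (edgeR log2 fold change 5.82, SE 0.58, adjusted p = 0.000687). Gm10334, 99.05% identical to Prss3, had 4, 3 and 27 reads in controls and 193, 194 and 128 in mutants (3.92, SE 0.52, adjusted p = 0.00280). Both rows showed the high control pool 3 seen for Prss1 and Prss3. Other genes share 55.4% of the 50-base windows of Gm5771 and 63.7% of those of Gm10334.

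Try5 had 58, 45 and 164 reads in control pools and 527, 592 and 204 in mutant pools (edgeR log2 fold change 2.33, SE 0.50, adjusted p = 0.0242). Try10 had 17, 11 and 42 reads in control pools and 136, 101 and 49 in mutant pools (2.05, SE 0.50, adjusted p = 0.0397). In both genes mutant pool 3 was the lowest mutant and still stood above control pool 3. 2210010C04Rik, a more distant copy that shares no 50-base window with another gene, had 59, 17 and 263 reads in controls and 691, 569 and 242 in mutants. Its groups overlapped, since control pool 3 stood above mutant pool 3, and it was not called (2.17, SE 0.69, adjusted p = 0.100).

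The filter left 3 rows untested, Try4, 1810009J06Rik and the pseudogene Gm5409. Try4 had 2, 0 and 0 reads in controls and 19, 14 and 6 in mutants, and 1810009J06Rik had 2, 0 and 3 in controls and 34, 39 and 6 in mutants. Gm5409 had 8, 5 and 0 reads in controls and 38, 43 and 0 in mutants, so it was at 0 in 1 pool of each group. A count of 0 allows up to 3 reads, or 0.172 to 0.189 CPM in these libraries. Summed over all 11 trypsinogen rows, the level was 50.1 ± 30.5 CPM in controls against 312.6 ± 136.6 CPM in mutants (edgeR log2 fold change 2.64, SE 0.46, adjusted p = 0.00933).

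**Figure D2:**
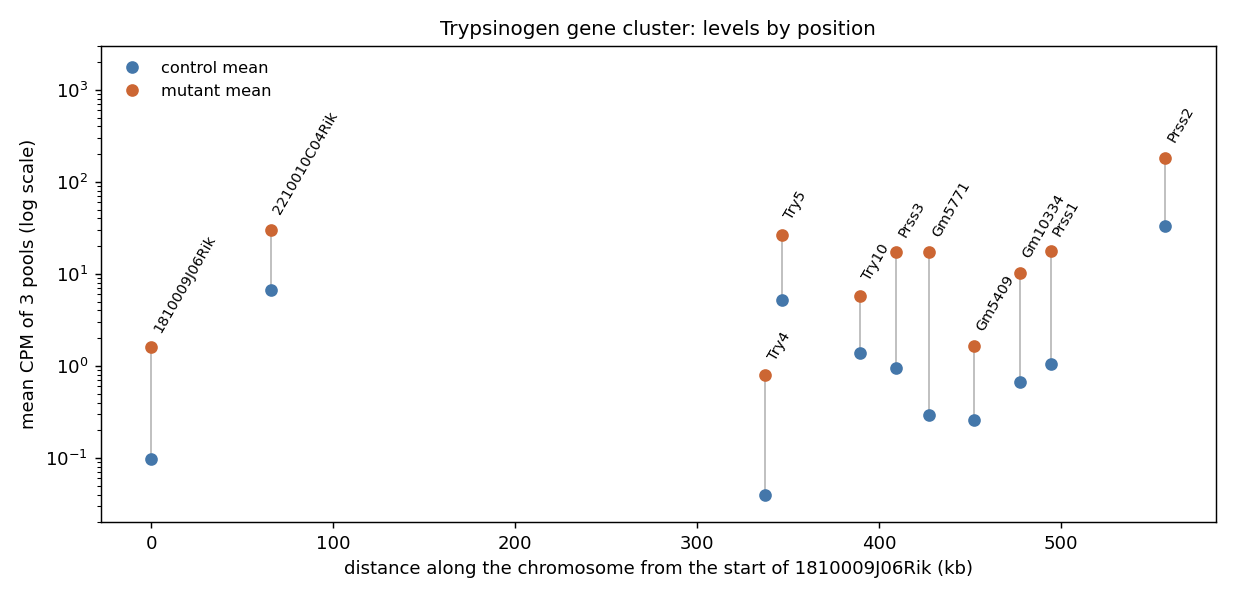
Mean level of each trypsinogen gene (CPM, log scale, mean of 3 pools) in control and mutant pools against its start, in kb along the chromosome from the start of 1810009J06Rik, the first gene of the cluster. The mutant mean is above the control mean for all 11 rows, and Prss2, at 557 kb, has the highest mean in both groups.

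Ctrl had the largest fold change of the 9 genes with all pools, but without control pool 3 its log2 fold change of 5.75 was below those of Prss3 (7.06) and Prss1 (6.33), and it was also below both without the 2 pools low in Xist. Control pools 1 to 3 had 9, 7 and 6 reads, against 545, 534 and 236 in mutant pools 1 to 3. The level was 0.438 ± 0.0939 CPM in controls against 26.4 ± 11.3 CPM in mutants (mean ± SD, n = 3). Its controls were low in all pools, including control pool 3, and mutant pool 3 was again the lowest mutant. Ctrl rose 59.3-fold (edgeR log2 fold change 5.89, SE 0.47, 95% interval 4.83 to 6.95, adjusted p = 0.000242). The call was kept under all 16 alternatives run, with log2 fold changes from 5.52 to 6.21. None of the 50-base windows of its transcript occurs in another gene, and it is annotated at chromosome 8, 105932003 to 105933862, minus strand.

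Ctrb1, the chymotrypsinogen B gene and by far the most abundant of the 9, was not called. It had 11334, 5572 and 17623 reads in controls and 14614, 14031 and 8680 in mutants. In CPM these were 676.7, 339.4 and 1029.9 in controls and 918.9, 826.6 and 496.6 in mutants. The controls alone spanned 3.04-fold and enclosed all mutant values. The log2 fold change was 0.13 (SE 0.35, 95% interval -0.67 to 0.93, adjusted p = 0.894 by edgeR), and its sign turned to -0.20 without control pool 2 and to -0.04 without mutant pool 1. Ctrb1 is annotated at chromosome 8, 111686519 to 111691010, minus strand.

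Ctrc, the gene of chymotrypsin C, a regulator of trypsinogen activation and breakdown, was low in all pools. It had 33, 14 and 25 reads in controls and 49, 26 and 33 in mutants, and the groups overlapped (edgeR log2 fold change 0.59, SE 0.36, 95% interval -0.22 to 1.41, adjusted p = 0.412). GENCODE lists Ctrc as coding and RefSeq lists it as a transcribed pseudogene. Its annotated span (chromosome 4, 141814962 to 141846359, minus strand) encloses Cela2a on the same strand and overlaps Casp9 and Ctrcos on the other. Strand cannot separate reads in stretches shared with Cela2a, and for Casp9 and Ctrcos the strand setting is not stated. None of the 50-base windows of the Ctrc transcript used here for its length occurs in another gene.

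Among the elastases, Cela3b was the gene that fell. It had 67, 44 and 112 reads in control pools and 28, 29 and 34 in mutant pools. The levels were 4.0, 2.68 and 6.55 CPM in controls and 1.76, 1.71 and 1.95 CPM in mutants. The mutants differed among themselves by 1.14-fold and the controls by 2.44-fold, with no overlap. Cela3b fell 2.44-fold (edgeR log2 fold change -1.29, SE 0.32, 95% interval -2.01 to -0.57, adjusted p = 0.0416).

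The Cela3b call was close to the threshold. Without control pool 1 the adjusted p was 0.0909, without control pool 3 it was 0.0911, and without mutant pools 1, 2 or 3 it was 0.110, 0.132 or 0.0981. The log2 fold change was -0.89 without control pool 3. By limma voom the adjusted p was 0.0788. The gene is annotated at chromosome 4, 137420999 to 137430540, minus strand, and 33.2% of its 50-base windows occur in Cela3a, which was not analysed here.

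Cela1 was the elastase gene with the most reads, at 1311, 806 and 2063 in controls and 1127, 1239 and 1234 in mutants. The mutants lay within 1.03-fold of each other, at 70.9, 73.0 and 70.6 CPM, and fell inside the control range of 49.1 to 120.6 CPM. The log2 fold change was -0.21 (SE 0.25, 95% interval -0.78 to 0.36, adjusted p = 0.719 by edgeR) and turned to 0.16 without control pool 3. Cela1 is annotated at chromosome 15, 100674421 to 100687921, minus strand.

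Cela2a had 90, 52 and 239 reads in controls and 230, 194 and 173 in mutants. Control pool 3, at 14.0 CPM, stood among the mutants, at 14.5, 11.4 and 9.90 CPM, while the other controls were at 5.37 and 3.17 CPM. It was not called with all pools (edgeR log2 fold change 0.66, SE 0.43, 95% interval -0.31 to 1.64, adjusted p = 0.446). Without control pool 3 it was called higher (1.47, adjusted p = 0.0126). Cela2a is annotated at chromosome 4, 141814962 to 141826160, minus strand, inside the span of Ctrc, and 25.6% of its 50-base windows occur in transcripts of Ctrc or Casp9.

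**Figure D3:**
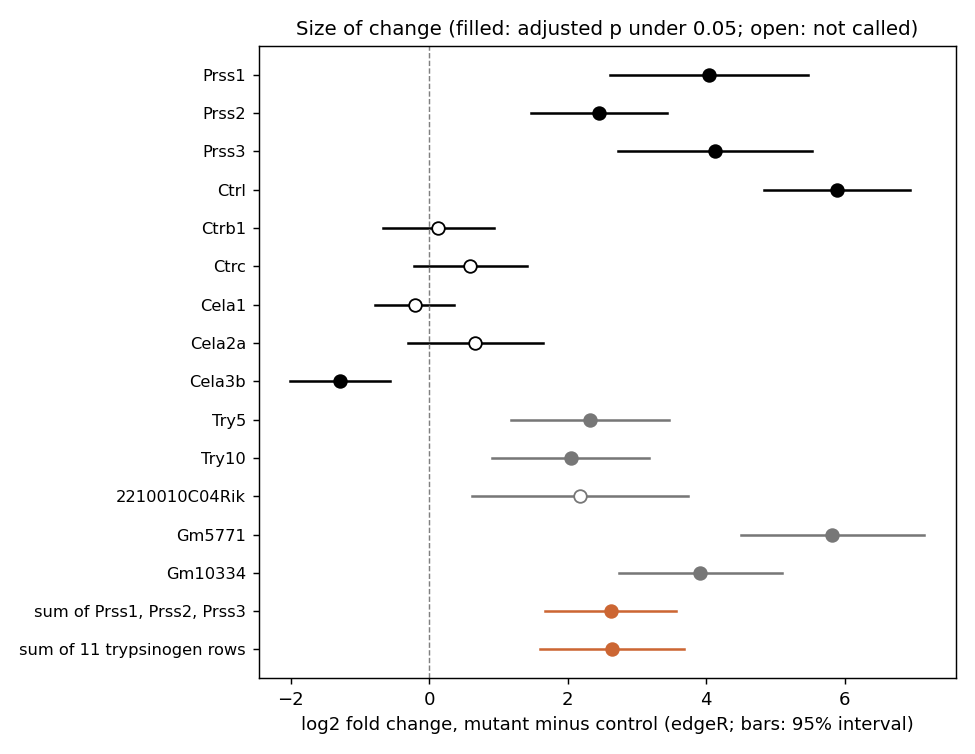
Log2 fold change (mutant minus control, edgeR) with 95% interval for the 9 protease genes (black), the other tested trypsinogen genes (grey) and the trypsinogen sums (orange), filled where the adjusted p was under 0.05. All trypsinogen intervals lie above 0, that of Cela3b lies below 0, and those of Ctrb1, Ctrc, Cela1 and Cela2a cross 0.

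Promoter sequence is shown for Prss1, Prss2 and Ctrl, which rose, for Cela3b, which fell, and for Ctrb1, the most abundant gene, which was not called. The sequences are RefSeq's (GRCm38.p6), 250 bases upstream of the annotated start, on the gene's strand. Capitals mark the letters CACCTG (an E-box type bound by PTF1A), TTCCCA (part of the RBPJL site) and CAAGGTC (an NR5A2 type), each searched on both strands. None of the marked matches overlaps another.
Prss1 (chr6:41458680-41458929, plus strand): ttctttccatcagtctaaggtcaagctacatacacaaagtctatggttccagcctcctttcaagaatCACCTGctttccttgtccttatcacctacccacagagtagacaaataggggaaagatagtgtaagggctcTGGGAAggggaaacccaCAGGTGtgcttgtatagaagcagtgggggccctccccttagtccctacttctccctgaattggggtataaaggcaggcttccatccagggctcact
Prss2 (chr6:41521526-41521775, plus strand): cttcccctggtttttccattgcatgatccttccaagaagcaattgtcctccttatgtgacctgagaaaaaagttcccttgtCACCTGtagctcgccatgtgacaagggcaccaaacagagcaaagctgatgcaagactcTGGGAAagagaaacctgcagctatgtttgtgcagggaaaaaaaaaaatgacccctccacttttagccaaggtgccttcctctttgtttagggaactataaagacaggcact
Ctrl (chr8:105933863-105934112, minus strand): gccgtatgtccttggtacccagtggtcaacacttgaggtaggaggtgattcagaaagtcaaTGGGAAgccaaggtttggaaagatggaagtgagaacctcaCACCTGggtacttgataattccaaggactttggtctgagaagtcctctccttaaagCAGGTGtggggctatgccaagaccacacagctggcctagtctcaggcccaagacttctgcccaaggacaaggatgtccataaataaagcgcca
Ctrb1 (chr8:111691011-111691260, minus strand): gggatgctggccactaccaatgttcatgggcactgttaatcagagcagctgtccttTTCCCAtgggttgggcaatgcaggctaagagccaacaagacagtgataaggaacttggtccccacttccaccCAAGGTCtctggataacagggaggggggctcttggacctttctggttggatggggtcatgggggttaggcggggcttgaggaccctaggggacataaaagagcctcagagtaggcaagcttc
Cela3b (chr4:137430521-137430770, minus strand): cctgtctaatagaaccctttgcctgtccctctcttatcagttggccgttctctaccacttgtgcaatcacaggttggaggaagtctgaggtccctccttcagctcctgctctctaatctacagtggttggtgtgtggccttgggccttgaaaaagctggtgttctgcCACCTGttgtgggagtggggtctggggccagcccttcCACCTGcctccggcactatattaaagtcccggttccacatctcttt
An entry was found for 8 of the 9 genes, all but Ctrc. CACCTG was present in 7 of these 8, against 17.2% of the 32851 promoters of the table. TTCCCA was present in 5 of 8 (Prss1, Prss2, Ctrl, Ctrb1 and Cela2a), against 21.6% of all promoters. Both were present, at any distance from each other, in 4 of 8 (Prss1, Prss2, Ctrl and Cela2a), against 3.91% of all promoters. The spacing ranged from 113 to 108 and 96 to 91 bases before the start in Prss1 to 218 to 213 and 85 to 80 in Cela2a. CAAGGTC was found in Ctrb1, 122 to 116 bases before the start, and in 3.32% of all promoters. Of the genes that rose, Prss3 had CACCTG 143 to 138 bases before the start and no TTCCCA. Cela3b, which fell, had CACCTG at 83 to 78 and 46 to 41 bases before the start and no TTCCCA. A match of letters does not show that a factor binds there.

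The trypsinogen share of the protease transcripts was steady between control pools while their amount was not. The trypsinogens made up 4.44%, 4.27% and 4.33% of the reads of the 9 genes in control pools 1 to 3, although the summed level ranged from 413.3 to 1225.9 CPM. Most of these trypsinogen reads were of Prss2, with 591 of 596, 284 of 290 and 816 of 908 reads in control pools 1 to 3. In mutant pools 1 to 3 the trypsinogen share was 20.5%, 22.7% and 15.5%. The mean went from 4.35% ± 0.0815 to 19.6% ± 3.69 (SD, n = 3, exact two-sided permutation p = 0.1, adjusted p = 0.15 over 3 shares), where 0.1 is the smallest p that 3 against 3 pools allow.

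The chymotrypsin share went from 83.8% ± 1.16 to 72.0% ± 1.49 (SD, n = 3, exact permutation p = 0.1, adjusted p = 0.15), with no overlap between groups. The elastase share was 11.9% ± 1.24 in controls and 8.47% ± 2.83 in mutants (SD, n = 3, exact permutation p = 0.3), and mutant pool 3, at 11.7%, stood inside the control range. The shares sum to 100% in each pool, so they do not move independently. The summed level of all 9 genes was 813.8 ± 406.4 CPM in controls against 1079.6 ± 328.7 CPM in mutants, with overlapping pools.

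**Figure D4:**
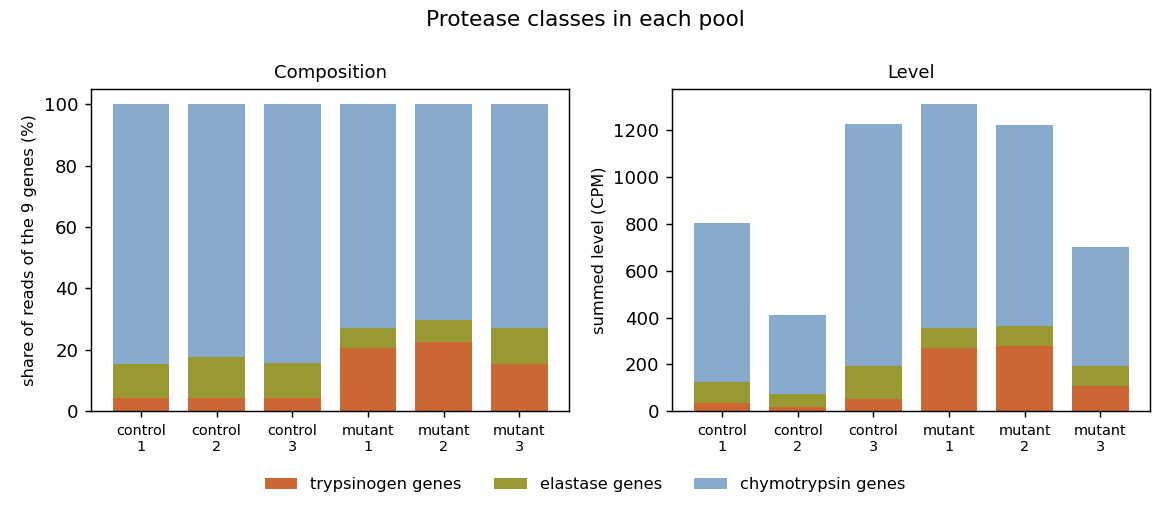
Reads of the trypsinogen, elastase and chymotrypsin genes in each pool, as a share of the reads of the 9 genes (left, %) and as summed level (right, CPM). The trypsinogen share is 4.27% to 4.44% in the controls and 15.5% to 22.7% in the mutants.

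Levels were also set against Ctrb1 within each library. Prss2 had 52.1, 51.0 and 46.3 reads per 1000 Ctrb1 reads in controls, and 249.7, 288.3 and 166.7 in mutants. The controls thus differed by 1.126-fold on this scale and by 2.76-fold in CPM. Ctrl had 0.794, 1.26 and 0.341 reads per 1000 Ctrb1 reads in controls and 37.3, 38.1 and 27.2 in mutants. Its controls differed more on this scale, by 3.69-fold, than in CPM, by 1.53-fold. The controls still differed by 7.56-fold for Prss1 and 28.9-fold for Prss3 on this scale.

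On the same scale Cela2a, whose groups overlapped in CPM, did not overlap, at 7.94, 9.33 and 13.6 in controls and 15.7, 13.8 and 19.9 in mutants. Cela3b had 5.91, 7.90 and 6.36 in controls and 1.92, 2.07 and 3.92 in mutants. Cela1 overlapped, at 115.7, 144.7 and 117.1 in controls and 77.1, 88.3 and 142.2 in mutants. Of the 9 ratios tested, the other members and Cpa1 included, 6 had an exact two-sided permutation p of 0.1, the smallest possible, and an adjusted p of 0.15.

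Scaled to transcript length as well (RPKM, CPM per kilobase), the order of the genes differed between groups. In controls Ctrb1 came first (mean 776.8 RPKM), followed by Cela1 (74.6) and Prss2 (41.0), whose ranges overlapped, then Cela2a (7.01) and Cela3b (4.76), which also overlapped. Ctrc (1.5), Prss1 (1.31), Prss3 (1.17) and Ctrl (0.498) came last by their means, each overlapping the next. Prss1 and Prss3, at up to 3.41 and 3.20, also overlapped Cela3b and Cela2a, at down to 2.89 and 2.96. In mutants Ctrb1 (851.2 RPKM) was followed by Prss2 (225.2) and Cela1 (64.5), with no overlap. Ctrl (30.1), Prss1 (22.0) and Prss3 (20.9) came next and could not be ordered by their ranges, then Cela2a (11.2 on the same scale). Cela2a, at up to 13.51, overlapped Prss1, at down to 13.08. Ctrc (2.28) and Cela3b (1.95) came last and overlapped.

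Pools of a group differed in the same direction for most of the genes. Control pool 3 held the highest control level for 7 of the 9 genes and control pool 2 the lowest for 7. In the mutants, pool 3 held the lowest level for 7 of 9. With control pool 3 and mutant pool 1, the pools low in Xist, left out together, the summed trypsinogens had a log2 fold change of 2.86 (adjusted p = 0.0100 by edgeR), Ctrl one of 5.52 (adjusted p = 0.00110) and Cela3b one of -0.87 (adjusted p = 0.160). In that fit 5 genes were called higher, Cela2a included (1.31, adjusted p = 0.0174), and none lower. At an unadjusted p under 0.05, 1 of the 9 was lower in that fit by edgeR.

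**Figure D5:**
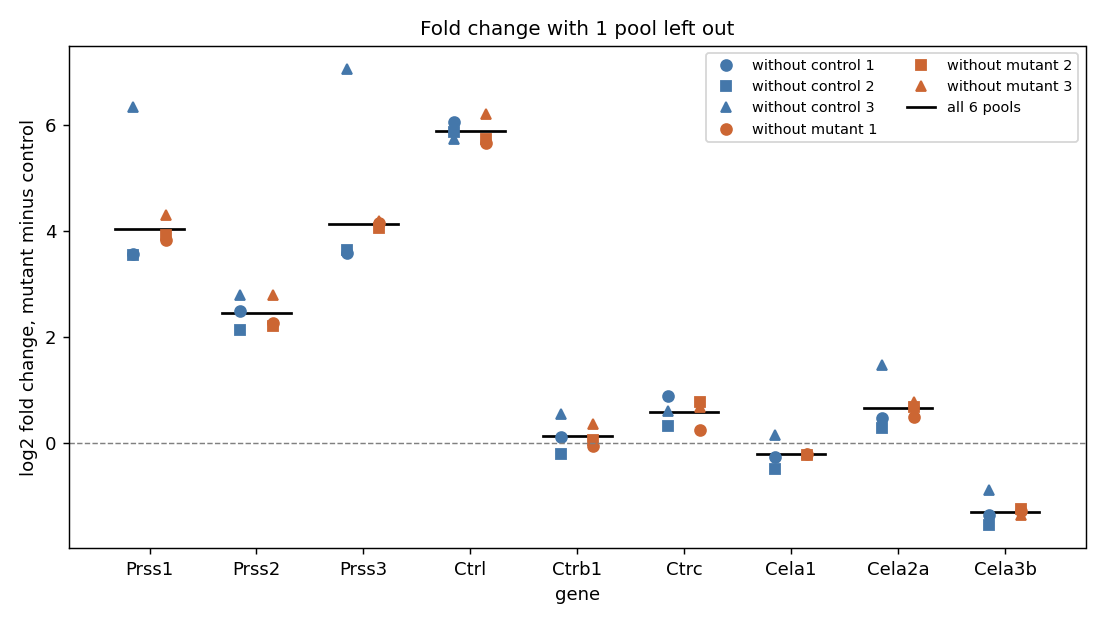
Log2 fold change (mutant minus control, edgeR) of each protease gene with 1 pool left out (symbols) and with all 6 pools (line). Prss1 and Prss3 lie at 6.33 and 7.06 without control pool 3, Ctrl stays between 5.66 and 6.21, and Ctrb1 and Cela1 lie on both sides of 0.

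Beyond the trypsinogens, Tmprss15 and 3 lysosomal protease genes were examined, and none of these that could be tested was called. Tmprss15, which encodes enteropeptidase, had 3 reads in control pool 1 and 0 in the other 5 pools. The lysosomal proteases cathepsin B, which can activate trypsinogen, cathepsin L and cathepsin D were all expressed. Ctsb was at 296.5 ± 17.6 CPM in controls against 265.9 ± 18.6 CPM in mutants (edgeR log2 fold change -0.16, SE 0.061, adjusted p = 0.178). Neither Ctsl (0.06, SE 0.072, adjusted p = 0.734) nor Ctsd (0.09, SE 0.052, adjusted p = 0.388) was called. Of these 3 genes, 1 was lower at an unadjusted p under 0.05 (Ctsb), and DESeq2 and limma voom called 0 as well. Other serine proteases of the list were too low to test, with 0 to 1 read of Klk1, a tissue kallikrein gene, and 4 to 20 reads of Prss16, a thymus-type protease gene, in each pool.

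Of 10 protease inhibitor genes tested, 6 were lower, 0 were higher and 4 were not called, with a median log2 fold change of -0.99. Over all genes tested, 4.28% were called lower and 3.67% higher. The lower genes other than Spint1 were the near-identical copies Serpina1a to Serpina1e, so count and median rest largely on a single gene family. By DESeq2 and limma voom also, and at an unadjusted p under 0.05, 0 were higher. Spink3, which encodes the trypsin inhibitor packed with the zymogens, was at 39.8 ± 26.3 CPM in controls against 35.8 ± 0.674 CPM in mutants (edgeR log2 fold change -0.16, SE 0.38, adjusted p = 0.883). Spink3 reads were 555, 287 and 1178 in controls and 575, 595 and 634 in mutants, so the mutants lay together inside a wide control range, as for Cela1. Spink4 had 9, 8 and 20 reads in controls and 8, 0 and 2 in mutants and was not tested.

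Spint1, a membrane-bound inhibitor of trypsin-like proteases, fell from 90.6 ± 1.5 CPM to 70.7 ± 5.8 CPM (edgeR log2 fold change -0.36, SE 0.062, adjusted p = 0.00940), and its relative Spint2 was not called (-0.11, adjusted p = 0.480). The other genes that fell were the alpha-1-antitrypsin copies, Serpina1a (-1.20), Serpina1b (-1.37), Serpina1c (-2.83), Serpina1d (-2.26) and Serpina1e (-2.97 on the log2 scale), with adjusted p from 0.00437 to 0.0379. These copies are near-identical, so their split is uncertain. Serpini2, a serpin gene of the pancreas, and A2m, the gene of alpha-2-macroglobulin, were not called (-0.05 with adjusted p = 0.955, and -0.78 with adjusted p = 0.0595). The 6 liver markers tested, which share Serpina1a with this list, included 4 lower genes, and the summed liver list was 333.3 to 473.1 CPM in controls and 175.1 to 206.8 CPM in mutants. Most of that sum was Ttr, at 263.3 to 380.3 CPM in controls and 150.2 to 176.5 CPM in mutants. No liver marker was at 0 in all pools, and their part in the result was not tested.

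Of the 4 genes for protease-activated receptors, 1 was called, against 3.67% called higher and 4.28% called lower over all genes tested. F2rl2, which encodes PAR3, had 0, 3 and 2 reads in controls and 15, 13 and 18 in mutants and was higher (edgeR log2 fold change 3.11, SE 0.58, adjusted p = 0.0129). F2rl1, which encodes the trypsin receptor PAR2, was at 4.05 ± 0.293 CPM in controls against 4.63 ± 0.643 CPM in mutants (0.19, adjusted p = 0.573). F2r, the thrombin receptor gene, and F2rl3 were not called (0.18 with adjusted p = 0.207, and 0.05 with adjusted p = 0.940).

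Other acinar genes were examined as a companion list of digestive enzymes, acinar transcription factors and zymogen granule genes. Of 25 tested, 5 were higher, 1 was lower and 19 were not called, with a median log2 fold change of 0.08. Over all genes tested, 3.67% were called higher and 4.28% lower. Among the enzymes, Cpb1, a carboxypeptidase B gene, had 42, 31 and 97 reads in controls and 681, 472 and 307 in mutants (edgeR log2 fold change 3.12, SE 0.41, adjusted p = 0.00280). Rnase1, the pancreatic ribonuclease gene, had 1, 0 and 4 reads in controls and 91, 72 and 25 in mutants (adjusted p = 0.00489). Cpa1, the carboxypeptidase A1 gene that is on early in acinar precursors, was at 1269.2 ± 342.7 CPM in controls against 1742.7 ± 291.8 CPM in mutants and was not called (0.46, SE 0.19, adjusted p = 0.210).

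Among granule genes, Gp2, which encodes the main membrane glycoprotein of zymogen granules, had 4, 4 and 7 reads in controls and 263, 321 and 211 in mutants (edgeR log2 fold change 5.70, SE 0.28, adjusted p = 2.4e-05). Sycn, the gene of the granule protein syncollin, had 9, 11 and 25 reads in controls and 52, 48 and 41 in mutants (1.65, SE 0.35, adjusted p = 0.0222). Dmbt1 had 1, 0 and 0 reads in controls and 56, 51 and 13 in mutants (adjusted p = 0.00554). For all 3 granule genes and both enzymes, every mutant pool stood above every control pool, but these were named because they were called. Among the 25 companion genes tested, the groups did not overlap for 10, against 26.4% of all genes tested. Without control pool 3, 9 companion genes were called higher.

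Of 9 acinar transcription factor genes tested, 1 was lower and 0 were higher by edgeR, while 2 were higher at an unadjusted p under 0.05 and 2 were called higher by DESeq2. Ptf1a was at 20.3 ± 3.97 CPM in controls against 21.4 ± 2.39 CPM in mutants (edgeR log2 fold change 0.08, SE 0.14, adjusted p = 0.836). Rbpjl (-0.15, SE 0.14, adjusted p = 0.619) and Nr5a2 (-0.19, SE 0.087, adjusted p = 0.253) were not called. Bhlha15, which drives the secretory maturation of acinar cells, fell from 49.98 ± 13.1 CPM to 28.7 ± 5.01 CPM (-0.80, SE 0.19, adjusted p = 0.0355). Its reads were 889, 585 and 1048 in controls and 545, 464 and 429 in mutants, with no overlap. Without control pool 2, 4 companion genes were called lower, and without control pools 1 or 3, or mutant pools 2 or 3, 0 were, with 2 to 5 lower at an unadjusted p under 0.05 in these and all other fits.

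Transcripts of other cell types that make serine proteases or border the pancreas moved with the groups in part. All 5 neutrophil granule genes tested were higher, against 3.67% of all genes tested. Their list summed to 4.72 to 4.91 CPM in controls and 27.9 to 62.6 CPM in mutants. These cells make elastase from Elane, which is a different gene from the Cela members. Of 5 mast cell genes tested 0 were called, by edgeR, and the list summed to 101.4 to 115.3 CPM in controls and 89.9 to 96.9 CPM in mutants. Most of that sum was Kit, at 78.45 to 86.9 CPM in controls and 73.1 to 76.7 CPM in mutants. At an unadjusted p under 0.05, 1 of these 5 was lower (Kit), and DESeq2 and limma voom called 0 as well.

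Of 5 gut and stomach genes tested 2 were higher, Pgc (3.55, adjusted p = 0.00238 by edgeR) and Barx1 (0.39, adjusted p = 0.0472), while Tff1 was at 0 in all pools. The shares over all genes tested were 3.67% higher and 4.28% lower by edgeR. Sox2 (-2.35, adjusted p = 0.155 by edgeR) and Vil1 (-0.88, adjusted p = 0.0747) were not called. For both, every mutant pool stood below every control pool. Sox2 had 12, 94 and 12 reads in controls and 9, 6 and 8 in mutants, so its fold change rested largely on control pool 2. Tff3 (0.19) was not called either. The list summed to 66.2 to 81.6 CPM in controls and 79.8 to 99.4 CPM in mutants. Most of that sum was Barx1, at 56.7 to 69.7 CPM in controls and 71.8 to 90.3 CPM in mutants. Pgc encodes a gastric zymogen and had 7, 3 and 3 reads in controls and 60, 65 and 31 in mutants. Of 6 markers of pancreatic epithelium 1 was lower, Cdh1, and the list summed to 1365.1 to 1707.9 CPM in controls and 1234.8 to 1346.5 CPM in mutants. Of 5 mesenchyme markers 1 was higher, Col1a1, and that list summed to 6574.7 to 6761.8 CPM in controls and 7377.5 to 8302.3 CPM in mutants. By DESeq2, 2 of the gut and stomach genes were also called lower, 2 of the epithelial markers were lower, and 3 of the mesenchyme markers were higher. The part of these cell types in the protease differences was not tested.

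Genes whose levels followed the proteases most closely were found by Pearson correlation of log2 CPM over the 6 libraries, as a description. For the summed trypsinogens these were Masp1 (r = 0.999), a gene of a complement protease, Rad18 (0.996), Klhl13 (0.995), Rnase1 (0.993) and Kcne3 (0.992 over the same libraries). Masp1 had 25, 20 and 31 reads in controls and 51, 54 and 40 in mutants, the same order of pools within the controls. For Ctrl they were Cxcl12 (r = 0.999), 1110032A04Rik (0.998), Cxcr4 (0.997), Aldh1a1 (0.996) and the neutrophil gene Elane (0.995). For Cela3b they were Svip (r = 0.995), L3mbtl2 (0.993), Tm4sf4 (0.993), Esd (0.993) and 4933434E20Rik (0.992). The libraries fall into the 2 groups, so a gene that differs between groups correlates with any other that does.

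Within the 9 genes the same measure was 0.98 for Prss1 with Prss3, which share most of their sequence, and 0.94 for Prss1 with Prss2. Ctrl correlated with Prss2 at 0.92 and with Ctrb1 at 0.26. Ctrb1 correlated with Cela1 at 0.81 and with Cela2a at 0.84. Cela3b correlated with Cela1 at 0.65 and with Ctrl at -0.86, over the same 6 libraries.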

How the data were processed

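The deposited files hold whole-number read counts per gene made by the authors, not normalized. Per the submitters' processing notes, cutadapt 1.13, STAR, HTSeq 0.6.1p1 and DESeq2 were named, with build mm10 and no role or order; the STAR version, annotation, strand setting and read length were not given in the sources used here. Per the labels' protocols, each library was made with a TruSeq kit from 1 pool of 5 to 6 pancreata.

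Counts were fitted with edgeR 4.0.16 in R 4.3.3 (filterByExpr minimum 10, TMM, quasi-likelihood F test, a single term for genotype). P-values were adjusted by Benjamini-Hochberg over all genes tested, with a threshold of 0.05. CPM is the count over the TMM-scaled library size. SE is the size of the log2 fold change over the square root of F. RPKM used the length of the longest coding GENCODE M21 transcript (GRCm38). The test was tested on simulated data. Alternatives were other scalings, other filters, DESeq2 1.42.0, limma 3.58.1 (voom), robust estimation, a replicate block and each pool left out in turn. The fit without the 2 pools low in Xist was chosen after seeing the data.

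Text names all members, all rows of the trypsinogen, activation, inhibitor and receptor lists, the called companion genes (up to 4 per direction) with a fixed set, and the 5 most correlated genes per target; genes of the other cell-type lists named beyond this were chosen after their values were seen. Members and lists were chosen with earlier results of these data known. Replicates are separate pools, and p-values measure only the spread between them. The activation stretch of 1 member is not reported here.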

Additional observations from a re-analysis of the deposited data

How the results depend on the processing

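The count of protease genes called higher was 4 in the fit reported and under 13 of 16 alternatives; it was 5 without control pool 3 and without both pools low in Xist, and 1 with robust estimation. Leaving out 1 pool at a time gave 4 to 5 genes higher and 0 to 1 lower, with the lower call (Cela3b) kept without control pool 2 and lost without any other pool; it was also 0 by limma voom and without both pools low in Xist. Robust estimation gave 0 companion genes lower and a log2 fold change of 2.62 for the summed trypsinogens with an adjusted p of 0.0958. The summed trypsinogens ranged from 2.29 to 3.03 with 1 pool left out. Companion genes called higher ranged from 4 to 9 and those called lower from 0 to 4 with 1 pool left out, and 8 were higher without both pools low in Xist. Signs turned for Ctrb1, to -0.20 without control pool 2 and -0.04 without mutant pool 1 (range -0.20 to 0.55 with 1 pool left out), and for Cela1, to 0.16 without control pool 3 (range -0.48 to 0.16) and 0.17 without both pools low in Xist. The cause was not tested. Over all genes, 539 were higher and 628 lower, against 463 and 717 with total counts unscaled and 676 and 628 with DESeq2.

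The labels name no pairing of control and mutant pools. The deviations of same-numbered pools from their group means correlated at -0.49, 0.34 and -0.70 over 5000 genes. Deviations cancel out within a group, so correlations of both signs arise, and these values cannot decide whether pools were paired. Control pool 3 correlated with mutant pool 1 at 0.73, control pool 2 with mutant pool 3 at 0.62, and control pool 1 with mutant pool 2 at 0.50. Control pool 3 and mutant pool 1 were also the pools low in Xist and highest in Ddx3y. The remaining pairs lay between -0.56 and 0.35. The source of these likenesses was not tested, and the replicate block used the replicate numbers. With the replicate block the summed trypsinogens had a log2 fold change of 2.58 (adjusted p = 0.0188), 4 proteases were higher and 1 lower, and 5 companion genes were higher and 1 lower. Genes under 1 CPM rest on fewer than 18 reads per pool, so their fold changes are imprecise.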
